A study of Mus musculus with 8 samples.

Results

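The comparison was between the control libraries of 2 reporter sorts of mouse frontal isocortex, 2 D1Tom controls against 2 GTE controls, 4 of the 8 single-cell libraries of the series. The libraries were put in their groups by their labels, with earlier results of these data known, and counts were summed per library over the 15464 genes present in both count tables, of 17836 genes in the D1Tom table and 15769 in the GTE table. The D1Tom controls carried Drd1a-tdTomato on a Foxp2 flox/flox background and were both labelled female. The GTE controls carried golli-τ-eGFP on a Foxp2 flox/flox background and were both labelled male. All 4 came from animals at postnatal day 7 on a C57BL/6J backcross, and neither group was labelled with Emx1-Cre, the driver that deletes the floxed Foxp2 in the cKO libraries. The study made these sorts to compare controls with Foxp2 conditional knockouts (cKO), and the cKO libraries are used here only to ask whether a difference between the sorts recurs in other libraries. Nothing in the labels gives the number of animals per library, so p-values measure the spread between these libraries.

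Drd1a-tdTomato is a bacterial artificial chromosome transgene in which regulatory sequence of Drd1, the gene of the D1 dopamine receptor, drives a red fluorescent protein. The golli-τ-eGFP transgene uses a promoter of the golli transcription unit, which overlaps the myelin basic protein gene Mbp and is active in cortical neurons as well as in the oligodendrocyte lineage. In the postnatal cortex the D1 receptor couples to the G proteins that raise cyclic AMP, and deep-layer corticothalamic neurons, which express the transcription factor Foxp2, are among the cells that carry it. The reporter marks cells in which the transgene is active, which need not be the same cells as those that use the endogenous gene.

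The sorts differed in more than the reporter. The D1Tom controls held 3206 and 2395 cells with a median of 8130.5 and 12815 counts per cell, and the GTE controls held 3948 and 3071 cells with a median of 1085.5 and 1163 counts per cell. Library totals over the shared genes were 36313810 and 35914172 counts in D1Tom and 5986719 and 4797075 in GTE. The share of counts from mitochondrially encoded genes was 3.62% and 4.20% in D1Tom and 6.99% and 7.86% in GTE. Sort, count table, depth, labelled sex and preparation change together in these 4 libraries and cannot be told apart. D1Tom controls 1 and 2 were prepared on separate days, per the labels. Pairs of libraries shared 17 to 27 cell barcodes. Values of 2 were 1.69 and 0.725 times as frequent as values of 1 in the D1Tom controls and 0.922 and 1.35 times in the GTE controls, so the tables do not behave as plain numbers of molecules, and intervals from counts cover counting error only.

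Levels of whole control libraries below are CPM, the count of a gene scaled to a common library total. Their library sizes were scaled by the trimmed mean of M-values (TMM). Sums of these levels are therefore not shares of a library. Over all genes tested they came to 772240 and 828930 in the D1Tom controls, and to 1436000 and 1086600 in the GTE controls. Levels within a class of cells are CPM over the counts of that class in a library, without TMM. Class levels are therefore not on the scale of the library levels. A gene passed when its Benjamini-Hochberg adjusted p in edgeR's quasi-likelihood test was under 0.05. Of 13823 genes tested, 196 passed, which is 1.42% of genes: 156 were higher (1.13%) and 40 lower (0.289%) in D1Tom. Beside these, 3283 genes (23.8%) had an unadjusted p under 0.05, and both D1Tom libraries lay above both GTE libraries for 4330 genes (31.3%) and below both for 3288 (23.8%). The share of passing genes that were higher in D1Tom was 79.6% here, 41.9% of 1331 genes with DESeq2 (4.29% of genes higher and 5.95% lower) and 95.7% of 1458 genes with library totals in place of TMM. TMM moved the median log2 difference of all genes from 0.69 to 0.06, so differences are relative to that median. The number that passed moved with single libraries, from 149 without D1Tom control 2 and 152 without D1Tom control 1 to 1766 without GTE control 1 and 3253 without GTE control 2.

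The gene nearest in name to the red reporter was higher in the D1Tom sort. The tables list a gene named Drd and no Drd1; the symbol Drd matched no gene of the annotation, so what it stands for is not stated and it is printed as the tables have it. Its level was 50.7 and 53.5 CPM in D1Tom controls 1 and 2 and 2.88 and 7.70 CPM in GTE controls 1 and 2. Both D1Tom libraries lay above both GTE libraries, with a log2 difference of 3.29 (SE 0.47, adjusted p = 0.0221, edgeR), and Drd passed in all 12 alternative fits that held it.

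Drd was not spread evenly over the cells. A count of Drd was found in 21.3% and 35.9% of D1Tom cells and in 0.152% and 0.456% of GTE cells. After each cell was thinned to 500 counts the shares were 2.53% and 2.59% in D1Tom and 0.0774% and 0.0666% in GTE. In layer 6 corticothalamic-like cells of D1Tom, 72.5% and 88.9% of cells held a count at median depths of 15358 and 18269 counts. In astrocyte-like cells 6.29% and 15.2% did at median depths of 7755.5 and 9779.5 counts, and whether those counts are background was not tested. The level of Drd was highest in the layer 6 corticothalamic-like cells, at 292 and 259 CPM of the class. These cells held 32.8% and 21.6% of the Drd counts of D1Tom controls 1 and 2, so most counts lay in other cells. The same class of GTE control 2 held 30 of that library's 34 Drd counts, at 92.7 CPM.

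Sfxn1, which encodes a mitochondrial serine transporter, is the neighbour of Drd1 in the genome and was singled out here after its values were seen. In GENCODE M21 (GRCm38) Drd1 (ENSMUSG00000021478) spans chr13:54051183-54055705 on the minus strand and Sfxn1 (ENSMUSG00000021474) spans chr13:54071869-54108342 on the plus strand, with 16163 bases and 0 protein-coding genes between them. Sfxn1 was at 1122 and 1077 CPM in D1Tom and 206 and 162 CPM in GTE, a log2 difference of 2.58 (SE 0.41, adjusted p = 0.0336, edgeR). Over the alternatives the difference ran from 2.04 to 3.23 and the adjusted p reached 0.143, with the gene passing in 10 of 13.

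The Sfxn1 difference was present in each class of cells that could be set side by side. Over the named classes with at least 30 cells, the level of Sfxn1 ran from 533 to 2360 CPM in D1Tom control 1 and from 532 to 2072 CPM in D1Tom control 2. In GTE it ran from 158 to 287 CPM in control 1 and from 98.0 to 258 CPM in control 2. The lowest D1Tom class thus lay above the highest GTE class. In cells thinned to 500 counts Sfxn1 was found in 47.9% and 46.1% of D1Tom cells and in 5.08% and 4.36% of GTE cells, against 94.6%, 99.5%, 9.30% and 10.7% before thinning.

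**Figure D1:**
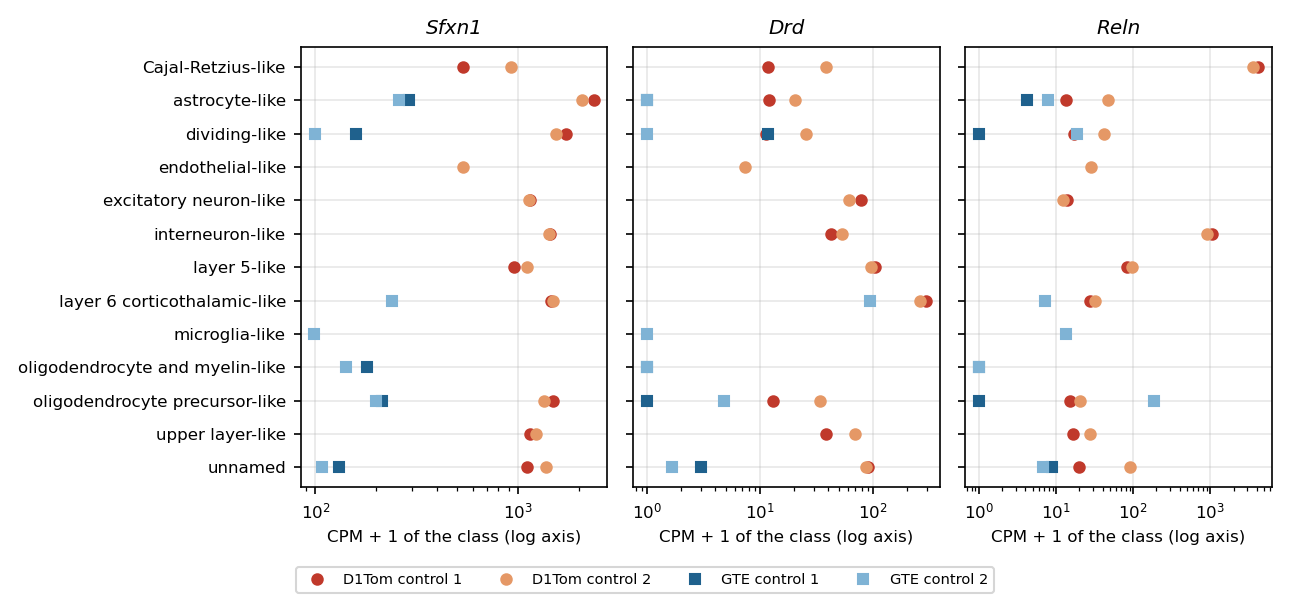
Level of Sfxn1, Drd and Reln by cell class (rows) and control library, as CPM + 1 of the class on a log axis; each point is 1 library and classes with under 30 cells in a library are left out. Sfxn1 is at 532 CPM or more in every D1Tom class and at 287 CPM or less in every GTE class, and Drd is highest in layer 6 corticothalamic-like cells and Reln in Cajal-Retzius-like cells.

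Mbp, the myelin protein gene that overlaps the golli unit, had values on the GTE side. It was at 43.5 and 81.1 CPM in D1Tom and 165 and 268 CPM in GTE, so the groups did not overlap, with a log2 difference of -1.80 (SE 0.44, adjusted p = 0.0794, edgeR), which did not pass. Mbp passed in 7 of 13 alternatives. Foxp2 itself was at 28.1 and 32.5 CPM in D1Tom and 13.9 and 51.9 CPM in GTE, with the D1Tom libraries inside the GTE range (log2 difference -0.12, SE 0.54, adjusted p = 0.916, edgeR), and its sign turned in 5 of 13 alternatives.

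Reln was the 1 gene with a 3′ end of its own among the 15 genes named by size as higher in D1Tom (own and shared ends are defined with the printed sequences). Reln (ENSMUSG00000042453, chr5:21884454-22344702, minus strand, GRCm38) encodes reelin, an extracellular protein secreted by Cajal-Retzius cells and by some interneurons. It was at 174 and 176 CPM in D1Tom and 9.36 and 28.1 CPM in GTE, a log2 difference of 3.22 (SE 0.52, adjusted p = 0.0347, edgeR). Within D1Tom its level was 4157 and 3566 CPM in Cajal-Retzius-like cells and 1053 and 910 CPM in interneuron-like cells, and at most 94.9 CPM in any other named class. Cajal-Retzius-like cells held 42.2% and 48.4% of the Reln counts of the D1Tom libraries, and interneuron-like cells 50.3% and 29.9%.

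Other genes with their own end, chosen after their values were seen except Syp, lay in the same direction. Syp, which encodes the synaptic vesicle protein synaptophysin, was at 110 and 128 CPM in D1Tom and 11.8 and 26.5 CPM in GTE (log2 difference 2.64, SE 0.44, adjusted p = 0.0367, edgeR). Cntn2, a contactin of the axon surface, was at 27.3 and 23.1 CPM in D1Tom and 3.12 and 2.95 CPM in GTE (log2 difference 3.05, adjusted p = 0.0111). Slc7a5, a subunit of the large neutral amino acid transporter, was at 56.6 and 102 CPM against 14.2 and 8.16 CPM (log2 difference 2.83, adjusted p = 0.0336). None of the 3 overlapped between the sorts. Fam19a1, which encodes a small secreted protein, had a log2 difference of 2.29, Ptprk, a receptor tyrosine phosphatase, of 1.96, Nell2, a secreted neuronal protein, of 1.95 and Plppr1, a neuronal membrane protein, of 1.90, with adjusted p from 0.0295 to 0.0419 in edgeR's test. Timm8a1, a chaperone of mitochondrial protein import, was at 69.2 and 61.5 CPM in D1Tom and 4.08 and 1.13 CPM in GTE (log2 difference 4.66, SE 0.53, adjusted p = 0.00765, edgeR), and it passed in all 13 alternatives.

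**Figure D2:**
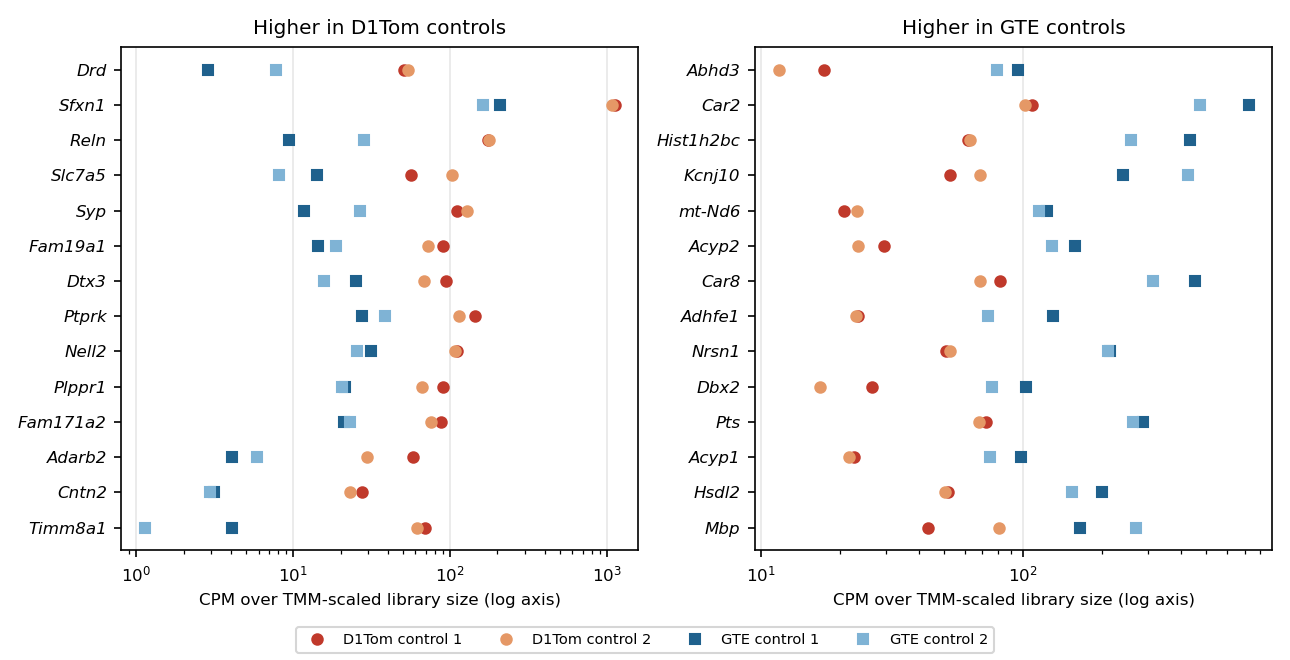
CPM over TMM-scaled library size, on a log axis, in each of the 4 control libraries. The genes are ones described in the text, plus Dtx3 and Fam171a2, which are shown in the figure only. Circles are D1Tom and squares are GTE. In each gene shown the 2 D1Tom libraries lie on one side of the 2 GTE libraries; all shown passed the test except Mbp (adjusted p = 0.0794, edgeR).

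Most calls on genes with their own end lay near the threshold. When genes with a shared 3′ end or no match in the annotation were left out before the fit, an alternative chosen after seeing the data, 4 of the 104 own-end genes that had passed still passed: Timm8a1, with an adjusted p of 0.049987, and the Y-linked Eif2s3y, Ddx3y and Kdm5d. All 104 had an adjusted p under 0.1 there, and 77 of them shared the value 0.0642. DESeq2 called 103 of the 104.

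Genes that mark cell types were read as lists, and in summed libraries fewer cells of a type and less RNA per cell cannot be told apart. The lists were chosen with earlier results in view, so their direction is a description. Over all genes tested, both D1Tom libraries lay above both GTE libraries for 31.3% and below both for 23.8%. Counts of list members above or below are to be read beside these shares. Of the 7 Cajal-Retzius genes tested, 2 passed, both higher in D1Tom, all 7 lay above in both D1Tom libraries against both GTE libraries (31.3% of all genes did), and the median log2 difference was 3.22 against 0.06 over all genes. That median was 2.55 with Ebf3, at 0 counts in both GTE libraries, set to its bound. It was 2.50 without GTE control 1, 1.72 with all 8 libraries in the fit, and 9.34 without GTE control 2, where 4 of the 7 genes were at 0 counts in the GTE library left and the fitted value is no bound. The second gene to pass was Ebf3, a transcription factor, at 3.02 and 4.11 CPM in D1Tom and 0 counts in both GTE libraries, which is at least 5.10-fold higher against a floor of 3 counts per library. Ndnf, a secreted factor of layer 1 neurons, was at 59.2 and 62.4 CPM in D1Tom and 3.84 and 17.2 CPM in GTE, and did not pass (adjusted p = 0.0745, edgeR). A cluster named Cajal-Retzius-like held 50 and 67 D1Tom control cells, 1.56% (95% exact binomial interval 1.16% to 2.05%) and 2.80% (2.17% to 3.54%) of the libraries. No GTE cluster carried that name, but 88.9% and 76.2% of the cells of GTE controls 1 and 2 fell in clusters without a name. The missing name therefore does not show that such cells were absent.

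Interneuron genes varied among themselves. Of 16 tested, 2 passed, both higher in D1Tom, 10 lay above both GTE libraries and 1 below, with a median log2 difference of 0.96, which was 1.51 without GTE control 1 and 0.59 without GTE control 2. Adarb2, an RNA-editing family member of interneurons born in the caudal ganglionic eminence, was at 58.3 and 29.5 CPM in D1Tom and 4.08 and 5.89 CPM in GTE (log2 difference 3.13, adjusted p = 0.0265, edgeR). Sp8, a transcription factor of the same lineage, was at 8.51 and 6.56 CPM against 0.960 and 0.680 CPM (adjusted p = 0.0399, edgeR). Lhx6, a transcription factor of interneurons from the medial eminence, was at 2.81 and 3.53 CPM in D1Tom and 5.52 and 5.21 CPM in GTE, and Gad2, a GABA-synthesizing enzyme, was at 42.9 and 31.1 CPM against 40.5 and 38.3 CPM. Neither of these passed, and whether members of the list differ from each other was not tested.

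Excitatory neuron genes had a median near that of the interneuron genes. None of 11 passed by edgeR, with 4 higher and 2 lower at an unadjusted p under 0.05, and 1 was higher by DESeq2. In 8 both D1Tom libraries lay above and in 2 below. The median log2 difference was 0.84, above 0 in all 13 alternatives and 0.28 with cells thinned to 500 counts. The 10 genes of layer 6 corticothalamic neurons had a median of -0.28, with none passing by edgeR, 1 higher and 1 lower at an unadjusted p under 0.05 and the same by DESeq2, and that median was -0.73 without GTE control 1 and 0.56 without GTE control 2, with its sign turned in 2 alternatives. Tle4, a corepressor of these neurons, was at 55.3 and 60.8 CPM in D1Tom and 38.9 and 114 CPM in GTE, and Tbr1, a transcription factor of layer 6, at 68.8 and 79.6 CPM against 47.7 and 119 CPM, so for both the GTE controls spanned the D1Tom controls. Ntsr1, the neurotensin receptor of corticothalamic neurons, was at 14.3 and 11.3 CPM in D1Tom and 1.20 and 3.17 CPM in GTE, and did not pass by edgeR (adjusted p = 0.0544). Of the 13 pan-neuronal genes none passed by edgeR, 2 in each direction had an unadjusted p under 0.05, DESeq2 called 1 lower, and the median was 0.04.

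Vessel wall and antigen presentation genes were higher in D1Tom in a few members. Of 8 mural cell genes 2 passed, both higher, with a median log2 difference of 3.13 and 6 above both GTE libraries. Without D1Tom control 2 that median was 1.39, and the median of the 10 endothelial genes, none of which passed by edgeR (2 higher at an unadjusted p under 0.05, 0 by DESeq2), was 1.62 with that library and -0.08 without it. Higd1b, a pericyte gene, was at 21.7 and 59.9 CPM in D1Tom and 2.16 and 2.49 CPM in GTE (log2 difference 4.13, adjusted p = 0.0234, edgeR), and Vtn, which encodes vitronectin, was at 4.53 and 14.9 CPM in D1Tom and 0 counts in both GTE libraries. D1Tom control 2 was the higher of the 2 D1Tom libraries in both genes, and it held 148 endothelial-like cells where D1Tom control 1 held 23; the part of these vessel cells in the result was not tested. The summed level of the mural list was 99.7 and 325 CPM in D1Tom and 40.5 and 39.7 CPM in GTE. Ndufa4l2 and Cox4i2, forms of respiratory chain subunits used in pericytes, also passed, at 9.36 and 24.5 CPM against 0.960 and 0.906 CPM for Ndufa4l2 and 4.02 and 10.2 CPM against 0 counts for Cox4i2.

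Of 8 antigen presentation genes, 3 passed, all higher in D1Tom and all of the class II pathway. Cd74, the invariant chain, was at 986 and 854 counts in the D1Tom controls and at 3 counts in GTE control 1 and 0 in GTE control 2 (adjusted p = 0.00955, edgeR). H2-Aa and H2-Eb1, class II chains, were at 6.55 and 5.50 CPM and at 9.08 and 7.83 CPM in D1Tom, and at 0 and 0.227 CPM and at 1.44 and 0.453 CPM in GTE. Among class I genes, B2m, the class I light chain, was at 75.5 and 131 CPM in D1Tom and 321 and 108 CPM in GTE and did not pass. Of 12 microglial genes none passed by edgeR (2 lower at an unadjusted p under 0.05, 1 lower by DESeq2) and their summed level was 129 and 70.4 CPM in D1Tom and 101 and 142 CPM in GTE. Of the 5 genes tested of border macrophages, which carry class II, none passed by edgeR (2 higher at an unadjusted p under 0.05, 1 higher by DESeq2), and 2 lay above both GTE libraries and 0 below. Their median log2 difference was 2.05, or 0.51 with the gene at 0 counts in both GTE libraries set to its bound, and their summed level was 25.6 and 7.39 CPM in D1Tom and 1.20 and 6.80 CPM in GTE. The part of these cells in the class II difference was not tested. Astrocyte-like cells held 90.6% and 68.5% of the Cd74 counts of the D1Tom controls, in 9.50% and 27.5% of those cells.

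The genes named by size as higher in GTE included Kcnj10, Car2, Car8 and Abhd3. Kcnj10 (ENSMUSG00000044708, chr1:172341210-172374085, plus strand, GRCm38), the inward rectifier potassium channel of astrocytes, was at 52.8 and 68.4 CPM in D1Tom and 241 and 426 CPM in GTE (log2 difference -2.46, SE 0.42, adjusted p = 0.0393, edgeR). Car2 (ENSMUSG00000027562, chr3:14886273-14900770, plus strand, GRCm38), a cytosolic carbonic anhydrase, was at 108 and 102 CPM in D1Tom and 723 and 472 CPM in GTE (log2 difference -2.51, SE 0.41, adjusted p = 0.0350, edgeR). Both GTE libraries were above both D1Tom libraries in each gene. Car8, a carbonic anhydrase family member without the enzyme activity, was at 81.8 and 68.4 CPM against 452 and 312 CPM. Abhd3, a phospholipase, was at 17.4 and 11.7 CPM against 95.5 and 79.3 CPM, with a log2 difference of -2.59 (adjusted p = 0.0189, edgeR).

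Some single genes known from progenitors or astrocytes passed in the same direction; of these, Dbx2 follows the rule of size and the others were picked with their values known. The radial glia list showed no such shift: none of its 7 genes passed by edgeR (0 higher and 1 lower at an unadjusted p under 0.05, 1 lower by DESeq2), 1 lay above and 1 below both GTE libraries, and its median log2 difference was 0.02, with the sign turned in 4 alternatives. Dbx2, a homeobox gene of progenitors, was at 26.5 and 16.9 CPM in D1Tom and 102 and 75.9 CPM in GTE (log2 difference -2.04, adjusted p = 0.0438, edgeR), and Emx2, a homeobox gene of cortical progenitors, was at 33.7 and 30.2 CPM against 102 and 99.2 CPM (log2 difference -1.66, adjusted p = 0.0498). Hopx, a homeodomain protein of radial glia and astrocytes, had a log2 difference of -1.78, Slc39a12, a zinc transporter of astrocytes, of -2.19, Fam107a, a gene of astrocytes and outer radial glia, of -3.25 and Il33, a cytokine of glial cells, of -3.66, with adjusted p from 0.0175 to 0.0498 in edgeR's test. The other genes with their own end named by size on the GTE side were Hist1h2bc, a histone, the acylphosphatases Acyp1 and Acyp2, Adhfe1, a mitochondrial alcohol dehydrogenase, Nrsn1, a neuronal vesicle protein, Pts, an enzyme of tetrahydrobiopterin synthesis, Hsdl2, a peroxisomal protein, and mt-Nd6, a mitochondrially encoded subunit of complex I. Their log2 differences ran from -2.47 for Hist1h2bc to -1.79 for Hsdl2.

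The calls on the GTE side needed both D1Tom libraries. Of the 15 genes named as higher in GTE, 1 passed without D1Tom control 1 and 0 without D1Tom control 2, and all 15 passed without GTE control 1 and without GTE control 2. All 15 named as higher in D1Tom passed without any 1 of the 4 libraries. All 30 kept their direction in these fits. Leaving a library out left 1 library in its sort, whose spread was then taken from the other sort.

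The astrocyte list had lower values in D1Tom with no gene passing. Of 16 genes none passed by edgeR, 1 was higher and 5 lower at an unadjusted p under 0.05 and likewise 1 and 5 by DESeq2. In this list 8 genes lay below both GTE libraries and 1 above. The median log2 difference was -0.81, below 0 in all alternatives and -0.53 without GTE control 2. It was -0.21 with library totals in place of TMM and -0.41 with cells thinned to 500 counts. Slc1a2, the main glutamate transporter, was at 500 and 752 CPM in D1Tom and 1342 and 2932 CPM in GTE. Gfap, the intermediate filament of astrocytes, lay the other way, at 78.4 and 138 CPM in D1Tom and 41.5 and 13.8 CPM in GTE. Neither passed. Cells of the astrocyte-like clusters were 26.3% and 12.6% of the D1Tom libraries and 1.72% and 8.04% of the GTE libraries, where 88.9% and 76.2% of cells fell in clusters that carried no name. The median depth of unnamed GTE cells was 1068 and 1065 counts, and the share of a class depends on what could be named. The myelin list had a median of -0.81, and none of 11 passed by edgeR (3 lower at an unadjusted p under 0.05, 2 lower by DESeq2). Its median was -0.11 with library totals in place of TMM and 0.26 without GTE control 2.

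**Figure D3:**
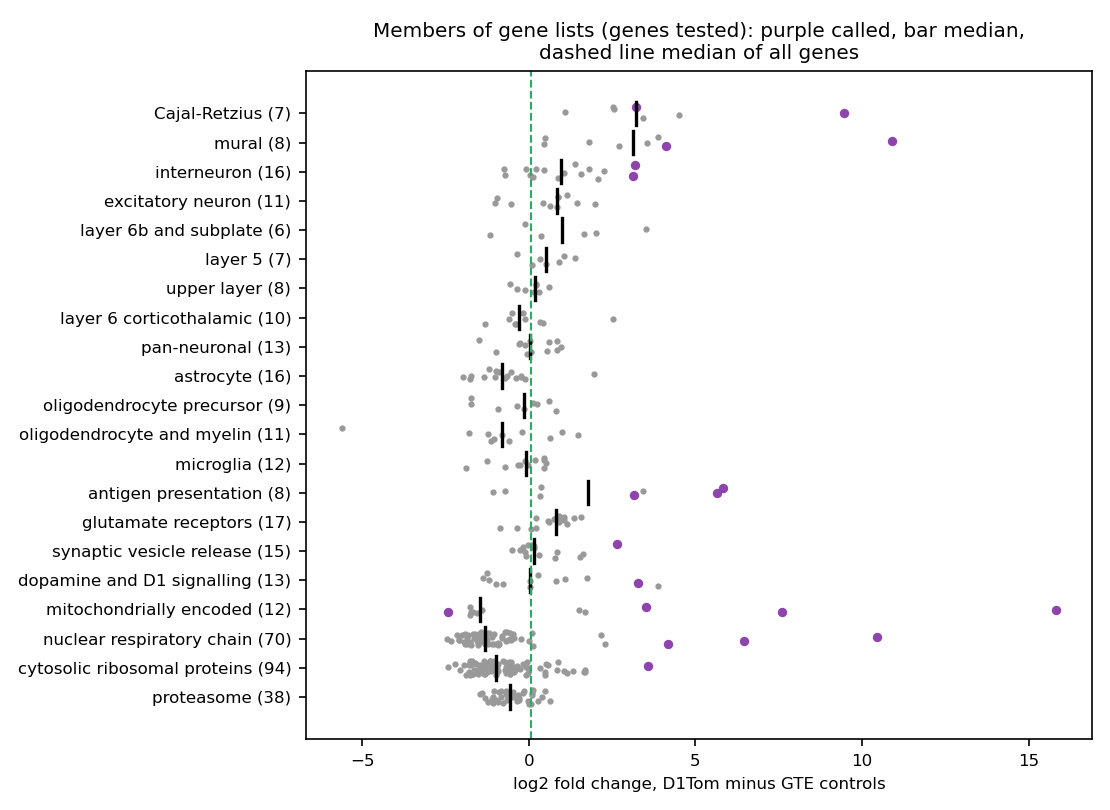
Log2 difference, D1Tom minus GTE controls, of each tested member of 21 gene lists (number tested in brackets); purple points passed at an adjusted p under 0.05, bars are list medians, and the dashed line is the median of all genes, 0.06. Cajal-Retzius and mural genes have the highest medians, 3.22 and 3.13, and mitochondrially encoded genes and the nuclear respiratory chain the lowest, -1.47 and -1.32.

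Glutamate receptor genes had mostly higher values in D1Tom with none passing, and the synaptic vesicle and dopamine signalling lists had medians near that of all genes. Of 17 glutamate receptor genes none passed by edgeR, 8 were higher and 0 lower at an unadjusted p under 0.05, and DESeq2 called 2 higher; 12 lay above both GTE libraries and 0 below, and the median log2 difference was 0.81, above 0 in all 13 alternatives and 0.51 without GTE control 1. Grin1, the obligate subunit of the NMDA receptor, was at 58.2 and 53.8 CPM in D1Tom and 16.3 and 21.8 CPM in GTE. Of 15 synaptic vesicle genes, Syp alone passed, and the median was 0.15. None of 13 GABA receptor genes passed by edgeR (2 higher and 1 lower at an unadjusted p under 0.05), and the median was 0.34. None of 19 voltage-gated channel genes passed by edgeR (3 higher and 0 lower likewise), and the median was 0.28. None of 11 immediate early genes passed by edgeR (5 higher and 0 lower likewise), and DESeq2 called 2 higher. The immediate early median was 1.49, or -0.29 without D1Tom control 1. Of 13 genes of dopamine and D1 signalling Drd alone passed, and the median was 0.04, with the sign turned in 2 alternatives. Ppp1r1b, the phosphoprotein DARPP-32, was at 30.9 and 15.8 CPM in D1Tom and 4.08 and 9.74 CPM in GTE, while Gnal, the olfactory-type stimulatory G protein that couples to D1 receptors, was at 104 and 158 CPM against 284 and 316 CPM, and neither passed.

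Genes of the respiratory chain mostly had lower values in D1Tom. Of 70 genes of the nuclear-encoded respiratory chain 3 passed, all higher in D1Tom (Atp5g2, Cox4i2 and Ndufa4l2), but 52 lay below both GTE libraries and 5 above. The median log2 difference was -1.32, below 0 in all 13 alternatives, and DESeq2 called 43 lower and 5 higher. Leaving out GTE control 1 gave -0.66, leaving out GTE control 2 gave -1.81, and the value was -0.62 with library totals in place of TMM. Of 16 glycolysis genes 1 passed, and DESeq2 called 3 higher and 0 lower. In 5 both D1Tom libraries lay above both GTE libraries, near the 31.3% of all genes, and in 1 below, against 23.8% of all genes. The glycolysis median was 0.18, or 0.04 with Pgam1, at 0 counts in both GTE libraries, at its bound. The sign of that median turned in 3 alternatives. The gene that passed was Pgk1, a phosphoglycerate kinase with a shared 3′ end, at 30.2 and 24.7 CPM in D1Tom and 6.24 and 1.81 CPM in GTE (adjusted p = 0.0485, edgeR). The summed level of the nuclear respiratory chain list was 20705 and 21930 CPM in D1Tom and 75650 and 40404 CPM in GTE. The 94 cytosolic ribosomal protein genes had a median of -0.97, or -0.54 without GTE control 1 and -0.29 with library totals in place of TMM. By edgeR 1 passed, Rps6, and DESeq2 called 43 lower and 3 higher. Among the 12 of these with their own 3′ end the median was 0.23, so the direction of this list turns when genes with a shared end are set aside. The proteasome list of 38 genes had a median of -0.55, none passed by edgeR (7 lower at an unadjusted p under 0.05, 5 lower by DESeq2), and the sign turned in 2 alternatives. The summed level of ribosomal protein genes was 299550 CPM in GTE control 1 and 174420 CPM in GTE control 2, against 86680 and 118210 CPM in D1Tom. As a share of counts, without TMM, these genes made up 20.5% and 15.8% in GTE controls 1 and 2. In D1Tom controls 1 and 2 that share was 11.2% and 14.2%.

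The mitochondrially encoded genes were split. Of the 12 tested, the 5 with their own end all lay below both GTE libraries, with a median log2 difference of -1.76, and mt-Nd6 among them passed, at 20.8 and 23.3 CPM in D1Tom and 124 and 115 CPM in GTE. Against them mt-Co3, a subunit of complex IV, was at 323 and 266 CPM in D1Tom and 0 counts in both GTE libraries, at least 421-fold higher against a floor of 3 counts per library. Another gene, mt-Nd4l, a subunit of complex I, was at 468 and 405 CPM against 3.12 and 1.36 CPM (log2 difference 7.61, SE 0.56, adjusted p = 0.00155, edgeR). Another, mt-Atp6, a subunit of ATP synthase, was at 766 and 365 CPM against 59.0 and 40.6 CPM. Of the 7 with a shared end, 4 lay above both GTE libraries, 2 below (mt-Co1 and mt-Nd2) and 1 overlapped (mt-Co2), so a shared end did not fix the direction.

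Genes whose transcripts share sequence with another gene were frequent among the largest differences. A gene was counted as having a shared 3′ end when at least 5% of the 50-base windows in the last 300 bases of its GENCODE M21 transcripts also occur in a transcript of another gene, a limit set after seeing the data. Of the 15 genes named as higher in D1Tom 13 have a shared end: mt-Co3, mt-Nd4l, Tuba1c, Atp5g2, Zbed5, Nutf2-ps1, Rbm3, Gstp1, Rps6, Mrps36, mt-Atp6, Hmgn2 and Dynlt1a. Of the 15 named as higher in GTE 2 do, Zfp931 and Hspb11. Over all genes, 54 of 1365 with a shared end passed (3.96%), 51 of them higher in D1Tom (3.74%) and 3 lower (0.22%). Against these, 104 of 11702 with their own end passed (0.889%), 71 higher (0.607%) and 33 lower (0.282%). Of 756 symbols with no match in the annotation 38 passed (5.03%), 34 higher (4.5%) and 4 lower (0.529%).

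The last 90 coding bases of 3 such genes and of 2 with their own end are shown, since reads of a 3′ kit fall near the end of a transcript; capitals mark bases covered by a 50-base window that also occurs in a transcript of another gene.
mt-Co3: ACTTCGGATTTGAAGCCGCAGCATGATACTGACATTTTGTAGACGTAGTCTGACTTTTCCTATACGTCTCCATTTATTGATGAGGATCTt
mt-Nd4l: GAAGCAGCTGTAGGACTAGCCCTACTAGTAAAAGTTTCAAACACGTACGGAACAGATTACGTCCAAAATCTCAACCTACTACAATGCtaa
Rps6: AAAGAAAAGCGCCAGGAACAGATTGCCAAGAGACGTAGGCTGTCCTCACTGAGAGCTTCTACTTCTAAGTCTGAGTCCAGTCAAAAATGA
Reln: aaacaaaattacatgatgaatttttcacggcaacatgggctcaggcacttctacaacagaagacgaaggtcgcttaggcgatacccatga
Kcnj10: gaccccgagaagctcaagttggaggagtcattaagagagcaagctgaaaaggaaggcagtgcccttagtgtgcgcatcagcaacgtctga
The sequences run 5′ to 3′ in the sense of the gene and come from the GENCODE M21 transcripts of GRCm38. The end of mt-Co3 is in capitals over 89 of 90 bases and matches 1 other gene, the pseudogene Gm28437, and that of mt-Nd4l over 87 bases and matches the pseudogene Gm10222. Rps6 is in capitals throughout and matches 6 processed pseudogenes. Reln and Kcnj10 have none. None of these pseudogenes is listed in either count table.

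Tuba1c, an alpha-tubulin, was at 353 and 248 CPM in D1Tom and 2.64 and 1.81 CPM in GTE (log2 difference 7.08, SE 0.50, adjusted p = 0.00155, edgeR). Rps6, a protein of the small ribosomal subunit, was at 640 and 811 CPM against 80.1 and 40.6 CPM (log2 difference 3.59, adjusted p = 0.0180). Rbm3, a cold-inducible RNA-binding protein, was at 287 and 302 CPM against 14.2 and 11.6 CPM, and Hmgn2, a nucleosome-binding protein, at 285 and 206 CPM against 28.8 and 14.5 CPM. Atp5g2, a subunit of ATP synthase, was at 260 and 261 CPM against 4.56 and 1.36 CPM. How each table treated reads that match several genes is not given in the sources used here, and its part in these differences was not tested. These genes are therefore uncertain as differences between cells.

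**Figure D4:**
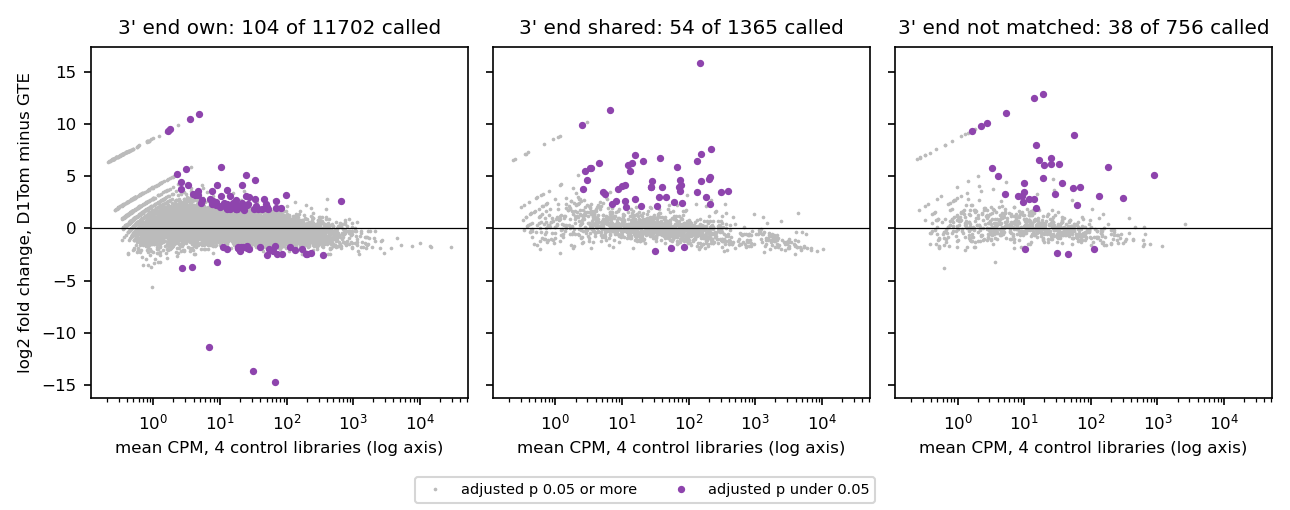
Log2 difference, D1Tom minus GTE controls, against the mean CPM of the 4 control libraries on a log axis, for genes with their own 3′ end, with a shared 3′ end and with no match in the annotation; purple points passed. The share that passed was 0.889%, 3.96% and 5.03%, and in the shared panel 51 of 54 purple points lie above 0.

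The cKO libraries, which share no library with the controls, were compared in the same way, 2 D1Tom against 2 GTE. Here each sort had 1 library labelled female and 1 labelled male, and all 4 carried Emx1-Cre with the floxed Foxp2. Count table and depth still changed with sort. The median was 7215 and 7198 counts per cell in D1Tom cKO and 2982 and 1268 in GTE cKO. Of 13588 genes 90 passed (0.662%), 87 higher (0.64%) and 3 lower (0.0221%) in D1Tom. All 196 genes that passed in the controls were tested there, and all 196 had the same direction. The share of all genes with the same direction was not computed. Of the 196, 65 passed again: 12 of 104 with their own end, 31 of 54 with a shared end and 22 of 38 with no match. Drd passed in both comparisons, with 27.3 and 21.1 CPM in D1Tom cKO and 2.21 and 2.34 CPM in GTE cKO (log2 difference 3.16, adjusted p = 0.0263, edgeR), where CPM values of the cKO libraries are over library totals without TMM. Syp (3.06, adjusted p = 0.0263), Nell2 (2.27, adjusted p = 0.0307) and Timm8a1 (4.27, adjusted p = 0.00986) also passed in both. On the GTE side Acyp2 (-2.06, adjusted p = 0.0321) and Dbx2 (-2.31, adjusted p = 0.0484) did.

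The gene lists also differed between the comparisons in size. In the cKO libraries the median log2 difference was 0.86 for the Cajal-Retzius list, against 3.22 in the controls, -0.35 for the nuclear respiratory chain, against -1.32, -0.20 for mitochondrially encoded genes, against -1.47, and -0.24 for ribosomal proteins, against -0.97. It was 3.68 for the 7 mural genes tested there, 1.64 for interneuron, 1.46 for excitatory neuron, 0.67 for glutamate receptor and -0.66 for astrocyte genes. The median of the layer 6 corticothalamic list was 0.30, against -0.28, and that of the border macrophage list -0.48, against 2.05. Whether a list's difference itself differs between controls and cKO libraries was not tested.

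Sfxn1 was at 732 and 544 CPM in D1Tom cKO and 226 and 154 CPM in GTE cKO (log2 difference 1.53, adjusted p = 0.125, edgeR), so the groups did not overlap and the gene did not pass. Reln had a log2 difference of 2.01 (adjusted p = 0.0629) and Kcnj10 of -2.32 (adjusted p = 0.0661) in the same edgeR fit, and Car2 was at 120 and 139 CPM in D1Tom cKO and 566 and 352 CPM in GTE cKO (adjusted p = 0.0795). Nrsn1 had -0.23 (adjusted p = 0.757), against -2.04 in the controls. Of the Y-linked genes, Eif2s3y was at 0 counts in both D1Tom controls and at 94.0 and 173 CPM in the GTE controls, which follows the labelled sex; in the cKO libraries it did not pass (adjusted p = 0.618, edgeR). A test of the difference between the controls and the cKO libraries in the effect of sort called 0 of 13505 genes by edgeR, with 418 at an unadjusted p under 0.05 (3.10%), and no other tool was run for it.

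**Figure D5:**
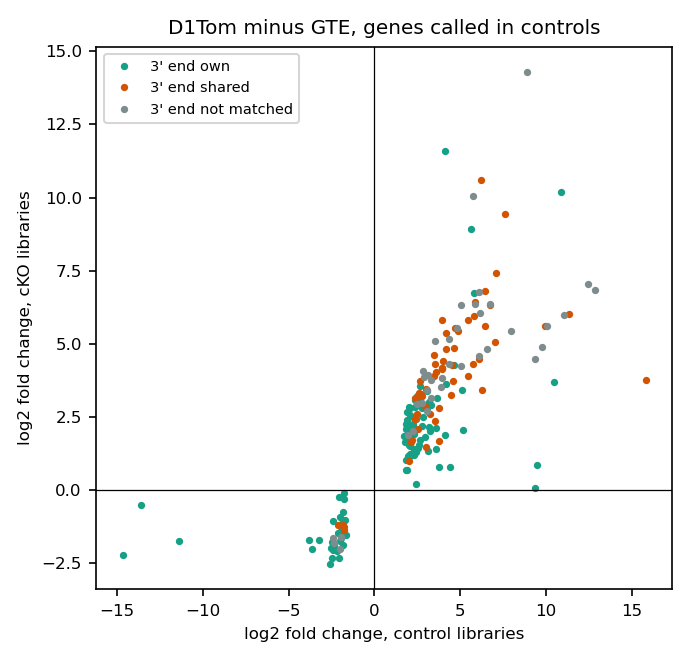
Log2 difference, D1Tom minus GTE, in the control libraries (horizontal) and in the cKO libraries (vertical) for the 196 genes that passed in the controls, by kind of 3′ end. All 196 lie in the lower left or upper right part of the plot.

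Within a class of cells, values of the 2 sorts could be set side by side for 3 classes with at least 30 cells in every control library. Clusters were made within each sort, so the astrocyte-like class is 3 clusters in D1Tom and 1 in GTE, and the other classes are 2 in D1Tom and 1 in GTE, and doublets were not called. The astrocyte-like class had 842 and 302 D1Tom cells and 68 and 247 GTE cells, the oligodendrocyte precursor-like class 347 and 246 against 95 and 174 cells, and the dividing-like class 208 and 181 against 135 and 69 cells. In the astrocyte-like class 167 of 10727 genes passed higher in D1Tom and 19 lower (1.56% and 0.177%, and 1.73% in all), of which 69 and 17 have their own end. Without D1Tom control 2 edgeR called 0 of 9374 genes there, with 486 at an unadjusted p under 0.05 and no other tool run, and without GTE control 1 it called 982 higher and 536 lower. In the oligodendrocyte precursor-like class 59 of 10332 passed higher and 4 lower (0.571% and 0.0387%, and 0.61% in all), and in the dividing-like class 24 of 9914 higher and 1 lower (0.242% and 0.0101%, and 0.252% in all). Without GTE control 1 edgeR called 0 of 11318 genes in the dividing-like class, with 2103 at an unadjusted p under 0.05.

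Sfxn1 passed in all 3 classes, which come from the same libraries, and in each class it did not pass in some alternative fit. It was at 2360 and 2072 CPM in D1Tom astrocyte-like cells and 287 and 258 CPM in GTE astrocyte-like cells (log2 difference 3.05, SE 0.41, adjusted p = 0.000472, edgeR). In precursor-like cells it was at 1490 and 1350 CPM against 212 and 199 CPM (log2 difference 2.78, SE 0.52), with no overlap. In all, 22 genes passed in the 3 classes, 13 with a shared end, 7 with no match and 2 with their own end, Sfxn1 and the Y-linked Eif2s3y, and all 22 had also passed over all cells.

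Astrocyte-like cells of the D1Tom sort had higher Gfap and class II antigen presentation genes; the genes named in this class were chosen after their values were seen, and none of these calls held without D1Tom control 2. Gfap was at 461 and 1268 CPM in D1Tom and 72.6 and 27.3 CPM in GTE (log2 difference 4.24, SE 0.60, adjusted p = 0.000622, edgeR). Cd74 was at 125 and 171 CPM and 0 counts in both GTE libraries, at least 21.8-fold higher against a floor of 3 counts per library, and H2-Aa and H2-Eb1 were also at 0 counts there, at least 6.24-fold and 7.49-fold higher. Nog, a secreted inhibitor of bone morphogenetic proteins, was at 114 and 135 CPM in D1Tom against 9.47 and 19.1 CPM in GTE. Serpinf1, which encodes pigment epithelium-derived factor, was at 329 and 231 CPM against 12.6 and 1.36 CPM.

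On the other side Vegfa, the vascular growth factor, was at 102 and 94.0 CPM in D1Tom astrocyte-like cells and 458 and 697 CPM in GTE ones (log2 difference -2.53, SE 0.39, adjusted p = 0.00133, edgeR). Apln, the peptide apelin, was at 11.1 and 8.17 CPM against 63.2 and 77.8 CPM, and Kcnj10 at 217 and 221 CPM against 591 and 1004 CPM, so Kcnj10 passed within the class as well as over all cells. Genes of oligodendrocyte precursors were also in this set: Lhfpl3 was at 8.55 and 17.5 CPM against 47.4 and 106 CPM, and Pdgfra, the receptor that marks these precursors, at 9.81 and 27.4 CPM against 41.1 and 139 CPM. Their part in the class differences was not tested. In precursor-like cells Mbp was at 33.0 and 43.9 CPM in D1Tom and 48.0 and 862 CPM in GTE (log2 difference -3.50, SE 0.79, adjusted p = 0.0474, edgeR), and the level of 1 GTE library, control 2, carried the difference.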

How the data were processed

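Single cells of mouse frontal isocortex were sorted by reporter and sequenced with a droplet 3′ kit. Per the labels and the submitters' processing notes, the authors deposited UMI counts per gene and cell, made with tools that include Cell Ranger 2.1.1, UMI-tools 0.5.4, STAR 2.5.2b and featureCounts (Subread 1.6.2), with builds mm10 and GRCm38.p6 and no role or order given. The handling of reads that match several genes is not given in the sources used here. The authors also deposited, per the file headers, the fraction of mitochondrial and ribosomal counts per cell, used here only as a check of the tables, and the name of each cell's library.

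Counts were summed per library over the 15464 genes of both tables and tested with edgeR 4.0.16 (quasi-likelihood, filterByExpr, TMM, Benjamini-Hochberg, threshold 0.05, 2 libraries against 2). DESeq2 1.42.0 and the other settings of the closing section were alternatives. Clusters were made separately for each sort from cells of 500 counts or more (scanpy 1.11.5, 2000 variable genes, 30 principal components, Leiden resolution 1) and named from markers. No doublets were called. Named genes were, in each direction, the 15 with the largest fold among those that passed, did not overlap between sorts and had a mean of at least 50 CPM, without clone names and Y-linked genes, plus list members, Drd, Foxp2 and Mbp. The members and the 38 gene lists were chosen with earlier results of these data known.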

Additional observations from a re-analysis of the deposited data

How the results depend on the processing

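Counts below are genes higher and lower in D1Tom. Over the control libraries (156 and 40) the counts were 1396 and 62 with library totals in place of TMM, 558 and 773 with DESeq2, 296 and 137 with D1Tom libraries thinned to the GTE total, 603 and 649 with cells thinned to 500 counts, 1516 and 1271 with all 8 libraries and genotype in the fit, and 1 and 3 without genes of a shared or unmatched 3′ end, a setting added after seeing the data. Without each library in turn they ran from 139 to 1407 and from 9 to 1846. In the cKO libraries (87 and 3) they were 642 and 387 with DESeq2, 5 and 0 without shared ends, and from 217 to 2662 and from 11 to 2081 without each library.

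In astrocyte-like cells (167 and 19) they were 91 and 11 with thinned cells and 38 and 11 without shared ends, DESeq2 called 37 lower, and without each library they ran from 0 to 982 and from 0 to 536. In dividing-like cells (24 and 1) they were 46 and 22 with DESeq2, 125 and 62 with thinned cells, 0 and 1 without shared ends, and from 0 to 288 and from 0 to 96 without each library. In oligodendrocyte precursor-like cells (59 and 4) they were 38 and 1 with thinned cells, 2 and 3 without shared ends, and from 61 to 85 and from 7 to 19 without each library.

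Over the gene lists (19 and 4) the counts were 89 and 30 with library totals, 52 and 121 with DESeq2, 36 and 19 with thinned libraries, 48 and 107 with thinned cells, 82 and 56 with all 8 libraries, and 0 and 3 without shared ends, with 8 lower when no filter was used. Without each library they ran from 23 to 77 and from 4 to 191.

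The replicate numbers were not used as pairs in the main fit. The difference of replicate 1 and 2 correlated between the sorts with r = 0.0156 across 13823 genes, which are not independent. Each difference came from 1 pair of libraries, so the correlation cannot decide whether libraries of the same number share a preparation. With the replicate block the counts were 922 and 602 in the controls, 992 and 403 in the cKO libraries, 435 and 126 in astrocyte-like cells, 72 and 6 in dividing-like cells, 84 and 4 in precursor-like cells and 74 and 43 over the lists. Foxp2 over all cells changed sign, with log2 differences of 0.40 with library totals, 0.57 with thinned cells, 0.11 with all 8 libraries and 0.13 with the replicate block. Its log2 difference ran from -0.77 to 1.06 without each library, the last without GTE control 2. In all 90 entries were followed, each a gene over all cells or within a class, and a gene can hold several. Foxp2 was the only 1 of the 90 that changed sign. Beyond the settings whose construction removes genes or libraries, the cause of these changes was not tested.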
